A study of Rattus with 52 samples.

Results

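The heat shock and cold-inducible genes were 10 genes of 20624 in the expression table. The members were chosen by name, with differences between PD and Control left ventricle in these same libraries already known. The heat shock genes were Hspa1a, Hspa1b, Hspa8, Hspb1, Hsph1, Hsp90aa1, Dnajb1 and Bag3. The cold-inducible genes were Rbm3 and Cirbp. The table carried 11 entries for them, because 2 gene identifiers share the name Hspa8. All 11 entries passed the filter on low reads in every comparison.

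The study asked how peritoneal dialysis (PD) acts on the heart and kidney of rats with and without renal insufficiency. Male Sprague Dawley rats had 5/6 nephrectomy (5/6Nx), in which the right kidney and the poles of the left were cut away, or Sham surgery at 10 weeks of age. Every rat received an abdominal catheter and had its omentum removed at week 6, so that Control rats went through these operations as well. PD rats were then given warmed dextrose dialysate 3 times a day for 8 days, whereas Control rats received no dialysate. RNA was sequenced from left ventricle (LV) and kidney at week 7, which gave 8 groups: 5/6Nx PD, 5/6Nx Control, Sham PD and Sham Control in each tissue. Each 5/6Nx group held 7 libraries and each Sham group 6, for 52 libraries in all. Depth ran from 16.7 M to 111.8 M reads a library (M, reads in units of 1e+06), with a median of 44.2 M. Levels are given below as normalized reads, which are reads divided by the size factor of the library. Tissue markers fitted the labels. The median level of Myh6, a cardiac myosin gene, was 1003627 normalized reads in LV and 2.36 in kidney, and that of Slc34a1, the proximal tubule phosphate transporter, was 2.80 in LV and 56582 in kidney.

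Heat shock proteins are chaperones that hold, refold or pass on damaged proteins. Their genes are switched on by heat shock factor when heat, oxidants or blocked protein breakdown leave proteins unfolded, and some members are also made at a steady rate in unstressed cells. Rbm3 and Cirbp encode small RNA-binding proteins that cells make when temperature falls mildly. In cultured mammalian cells the levels of both fall when temperature is raised.

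In LV, the heat-inducible HSP70 genes stood higher with dialysis and Rbm3 stood lower in both surgical groups. These LV differences helped to choose the members and are given as a description, with no test. Hspa1a (ENSRNOG00000045654), the classical inducible HSP70, ranged in Sham LV from 539 to 936 normalized reads with PD (median 676), against 294 to 508 in Control (median 384). Its neighbour and near-identical copy Hspa1b (ENSRNOG00000050647) ranged from 592 to 1098 with PD (median 734), against 336 to 579 in Control (median 431). All 6 Sham PD libraries lay above all 6 Sham Control libraries for both genes. The ratio of means was 1.82 for Hspa1a and 1.80 for Hspa1b. Among 15759 genes tested in Sham LV, 1.83% had groups that did not overlap.

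In 5/6Nx LV the PD libraries spread more widely. Hspa1a ranged from 438 to 1427 normalized reads with PD (median 823), against 292 to 555 in Control (median 479). For Hspa1b the range was 505.0 to 1659 with PD (median 910.0), against 348 to 624 in Control (median 541). PD libraries exceeded every Control library in 6 of 7 cases for each gene, and the remaining one, replicate 6, lay inside the Control range. The ratio of means was 2.02 for Hspa1a and 2.03 for Hspa1b. No member entry had groups without overlap in 5/6Nx LV, where the share among 15622 genes was 0.333%. Reads of Hspa1a and Hspa1b can fall to either copy. Their ratio stayed between 0.833 and 0.933 in LV and between 0.768 and 0.868 in kidney, so that they count as 1 measurement rather than 2.

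**Figure D1:**
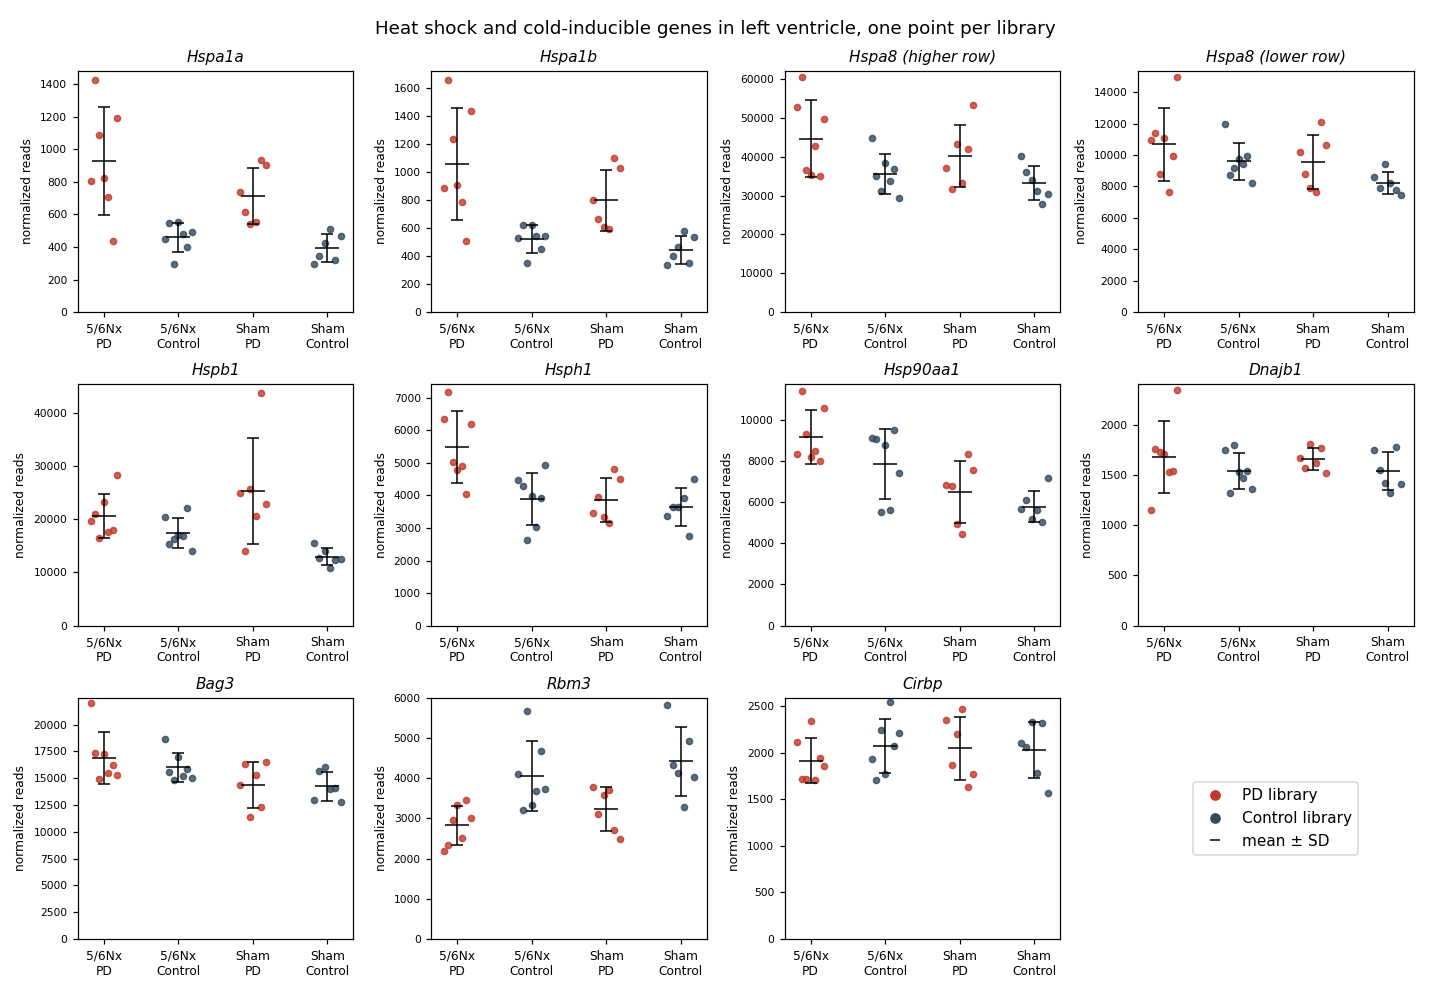
Normalized reads (vertical axis, linear from 0) of each member entry in the 4 left ventricle groups. Points are libraries (red for PD, dark for Control) and black bars give the mean ± SD, with the more and less abundant Hspa8 entries marked higher row and lower row; Hspa1a and Hspa1b sit higher in PD than in Control, Rbm3 sits lower, and Bag3 and Dnajb1 lie at like levels in the 4 groups.

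Rbm3 (ENSRNOG00000005387) moved to the other side. In Sham LV it ranged from 2492 to 3777 normalized reads with PD (median 3348), against 3274 to 5820 in Control (median 4231). In 5/6Nx LV it ranged from 2192 to 3451 with PD (median 2956), against 3203 to 5661 in Control (median 3736). The groups overlapped in both cases, with 3 of 6 Sham PD libraries and 5 of 7 5/6Nx PD libraries below every Control library. The log2 difference was -0.43 (SE 0.14) in Sham and -0.49 (SE 0.13) in 5/6Nx. Cirbp (ENSRNOG00000015999), which carries the same kind of RNA-binding domain, differed by 0.01 (SE 0.12) in Sham and -0.10 (SE 0.10) in 5/6Nx.

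All 9 heat shock entries had positive log2 differences with PD in both surgical groups of LV. Their median was 0.20 in Sham and 0.24 in 5/6Nx, beside 0.0083 and -0.0019 over all genes. The other LV heat shock genes varied in the size of the difference, which was not tested between genes. Hspb1 (ENSRNOG00000023546), the small heat shock protein that guards actin and intermediate filaments, ranged in Sham LV from 14107 to 43712 normalized reads with PD (median 23819), against 10807 to 15487 in Control (median 12622). One Sham PD library, replicate 5, held the 43712 reads, and the next highest held 25627. In 5/6Nx LV Hspb1 ranged from 16375 to 28347 with PD (median 19718), against 13982 to 22105 in Control (median 16847), which overlapped widely. Hsph1 (ENSRNOG00000000902), the HSP110 that recharges HSP70, had log2 differences of 0.49 (SE 0.15) in 5/6Nx LV and 0.09 (SE 0.13) in Sham LV. Hsp90aa1 (ENSRNOG00000007219), the stress-responsive cytosolic HSP90, differed by 0.24 (SE 0.14) in 5/6Nx and 0.14 (SE 0.14) in Sham. Dnajb1 (ENSRNOG00000021824), the HSP40 that hands substrates to HSP70, and Bag3 (ENSRNOG00000020298), the co-chaperone that steers sarcomere proteins to autophagy, stayed within 0.11 of zero in both surgical groups. Hspa8 encodes the constitutive HSP70. Its more abundant entry (ENSRNOG00000034066) differed by 0.31 (SE 0.14) in 5/6Nx and 0.26 (SE 0.13) in Sham, and its less abundant entry (ENSRNOG00000032585) by 0.14 (SE 0.13) in 5/6Nx and 0.20 (SE 0.11) in Sham. How reads are divided between these 2 Hspa8 entries is uncertain.

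The wider chaperone families were taken as 69 other heat shock and chaperone genes (HSP70 and HSP110, HSP40, small HSP, HSP90 with co-chaperones, BAG, chaperonins and heat shock factors) and 31 other genes named RBM or Srsf5. In Sham LV, 1 of 68 tested chaperone genes passed an adjusted p of 0.05 in limma with Benjamini-Hochberg adjustment, against 1.23% of all genes. It was Hsf2, a heat shock factor, at 612 ± 61.0 normalized reads with PD and 833 ± 84.5 in Control (SD, n = 6 each; log2 difference -0.39, SE 0.08, limma adjusted p = 0.039). No chaperone gene was called lower when any of 9 of the 12 libraries was left out, whereas 4 were called higher and 6 lower without Sham PD replicate 2, and weighted limma-voom called 2 higher and 5 lower. In 5/6Nx LV 0 of 68 passed, against 0.0896% of all genes, with 14 at an unadjusted p under 0.05. None of 30 tested RBM genes passed in either group, with 7 at an unadjusted p under 0.05 in Sham and 5 in 5/6Nx. Of all genes, 3072 of 15759 in Sham LV and 1333 of 15622 in 5/6Nx LV had an unadjusted p under 0.05. The median log2 difference of the chaperone genes was -0.02 in Sham and 0.10 in 5/6Nx LV, beside 0.01 and 0.00 over all genes. Of 6 neutrophil markers, 5 were called higher with PD in Sham LV and 2 in 5/6Nx LV, where 2 others had negative differences. In Sham LV 2 of 6 macrophage and 2 of 3 tested erythroid markers were also called higher. In 5/6Nx LV 0 of these markers were called. There all 6 macrophage markers had negative differences with PD (median log2 difference -0.55), and all 3 tested erythroid markers had positive ones. The summed level of the neutrophil markers ran from 10900.1 to 23427 normalized reads in Sham PD, against 2128 to 7921 in Sham Control. That of the erythroid markers ran from 210326 to 283020 in Sham PD, against 104252 to 205860 in Sham Control, and that of the macrophage markers from 15731 to 23118 in Sham PD, against 7899 to 18299 in Sham Control. The part of these cells in the values above was not tested, and in whole tissue more cells of a type and more RNA per cell cannot be told apart.

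In kidney, the dialysis contrasts were tested, and 0 of 11 member entries passed in either surgical group. In Sham kidney 23 of 16090 genes passed (0.143%), and in 5/6Nx kidney 2 of 16481 (0.0121%). The paper, which used DESeq2, reported more differing genes than this in both kidney contrasts. At an unadjusted p under 0.05 there were 4 member entries in Sham and 5 in 5/6Nx. Of all genes, 2780 of 16090 reached that p in Sham and 689 of 16481 in 5/6Nx. Among the heat shock genes Hsp90aa1 and Hsph1 had the smallest p-values in both groups, and Hspb1 had a larger difference in Sham. Hsp90aa1 ranged in Sham kidney from 11599 to 17826 normalized reads with PD (median 13713), against 8550 to 11088 in Control (median 9769). The groups did not overlap, with all 6 PD libraries above all 6 Control libraries. The share of all genes without overlap was not counted in kidney. The log2 difference of 0.50 (SE 0.10) had a limma adjusted p of 0.0549. This call depended on the fit: limma-voom gave 0.0487, and 0.0352 with sample quality weights. Without Sham PD replicate 4 it was 0.0261. In 5/6Nx kidney Hsp90aa1 ranged from 9216 to 13198 with PD (median 10066), against 6575 to 9255 in Control (median 7653), with 6 of 7 PD libraries above every Control library (log2 difference 0.42, SE 0.10, limma adjusted p = 0.584).

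Hsph1 showed like values. In Sham kidney it ranged from 8182 to 14851 normalized reads with PD (median 11485), against 6976 to 8921 in Control (median 8009.8), and 5 of 6 PD libraries lay above every Control library. The log2 difference was 0.49 (SE 0.11, limma adjusted p = 0.081), and without Sham PD replicate 2, the lowest of its group, the adjusted p was 0.0389. In 5/6Nx kidney it ranged from 5757 to 10275 with PD (median 7645), against 4417 to 6219.6 in Control (median 4921), with 6 of 7 PD libraries above every Control library (log2 difference 0.52, SE 0.12, limma adjusted p = 0.526). Hspb1 averaged 2475 ± 1070.0 normalized reads with PD and 1178 ± 281 in Control in Sham kidney (SD, n = 6 each), with a log2 difference of 0.93 (SE 0.23, limma adjusted p = 0.0972). The inducible HSP70 genes did not pass in kidney: Hspa1b differed by 0.27 (SE 0.18, limma adjusted p = 0.448) in Sham and 0.20 (SE 0.19, limma adjusted p = 1) in 5/6Nx. As a description, the log2 difference with PD of Hspa1b was larger in LV than in kidney by 0.63 (SE 0.28) in 5/6Nx and 0.43 (SE 0.25) in Sham, and that of Hsph1 was smaller in LV than in kidney by 0.40 (SE 0.18) in Sham and 0.03 (SE 0.20) in 5/6Nx.

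The cold-inducible pair had negative values in kidney that also missed the threshold. Rbm3 ranged in 5/6Nx kidney from 2475 to 4247 normalized reads with PD (median 3505), against 3277 to 5670.1 in Control (median 4187). Its log2 difference was -0.34 (SE 0.13, limma adjusted p = 1). Cirbp averaged 1449 ± 272 with PD and 1921 ± 251 in Control in 5/6Nx kidney (SD, n = 7 each; log2 difference -0.39, SE 0.12, limma adjusted p = 0.851), and 4 of 7 PD libraries lay below every Control library. In Sham kidney the differences were -0.21 (SE 0.14, limma adjusted p = 0.436) for Rbm3 and -0.15 (SE 0.12, limma adjusted p = 0.521) for Cirbp. No difference in these responses between surgical groups was detectable: 0 of 11 member entries and 0 of 17096 genes (0%) passed the kidney interaction of dialysis with surgery in limma, with 765 genes and 0 member entries at an unadjusted p under 0.05. For Hspb1 the interaction was -0.65 (SE 0.40, limma adjusted p = 0.954).

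**Figure D2:**
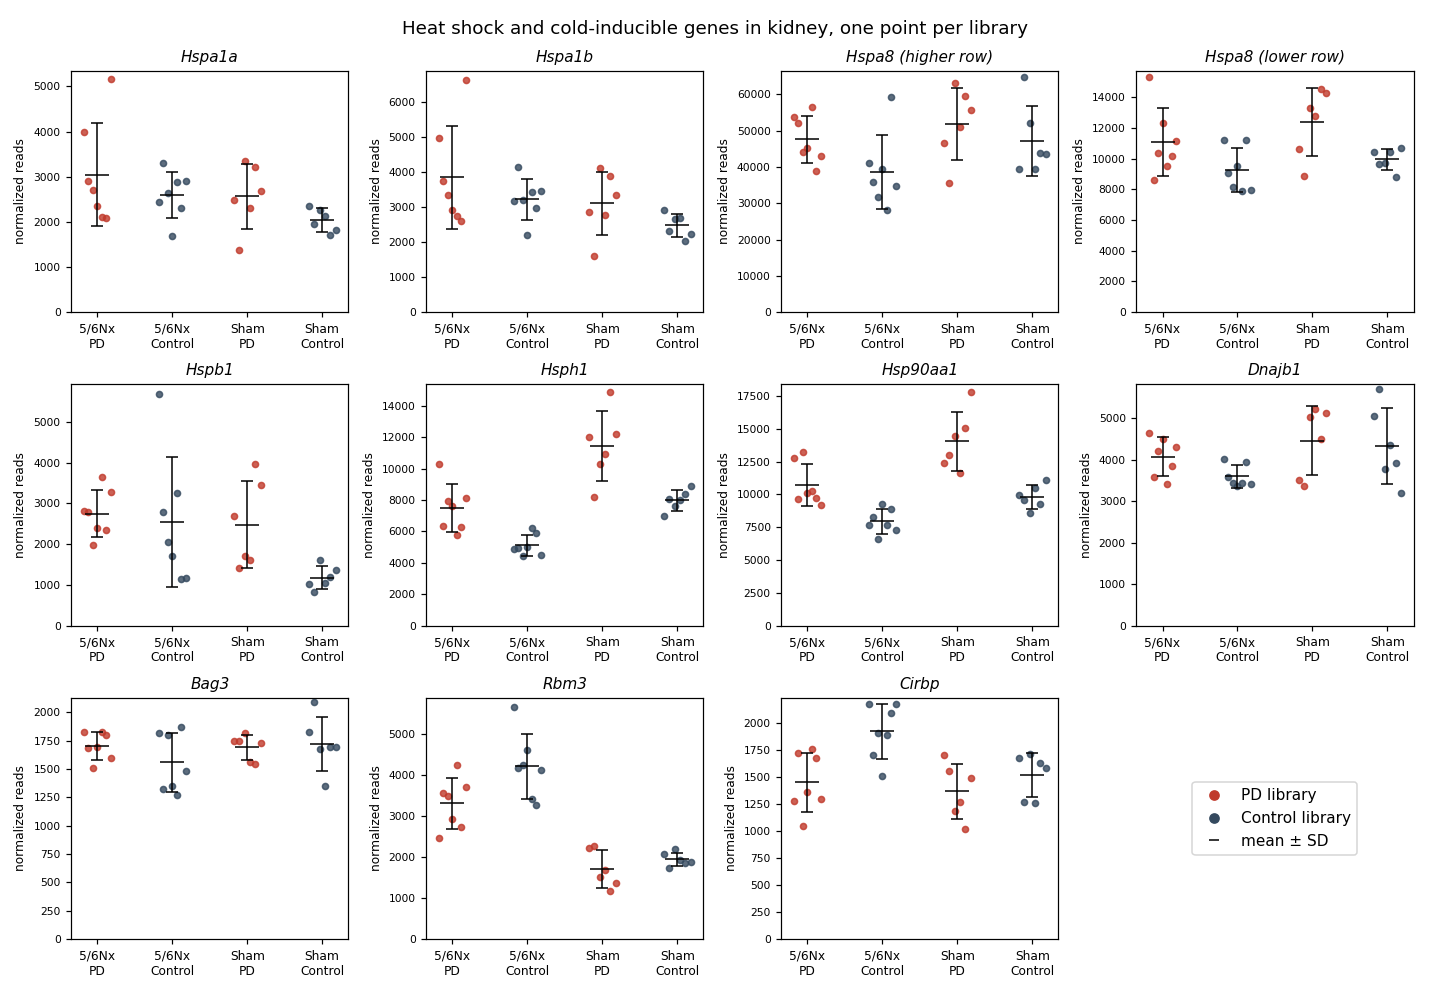
Normalized reads (vertical axis, linear from 0) of each member entry in the 4 kidney groups. Points are libraries (red for PD, dark for Control) and black bars give the mean ± SD. Rbm3 sits higher in 5/6Nx than in the matching Sham group, and Hsph1 and Hsp90aa1 sit lower in 5/6Nx than in Sham.

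Among the wider families in kidney, 1 of 67 tested chaperone genes passed with PD in Sham and 0 in 5/6Nx, with 9 at an unadjusted p under 0.05 in each. The gene was Serpinh1, the heat-inducible collagen chaperone of the endoplasmic reticulum, at 9178 ± 1691 normalized reads with PD and 5871 ± 425 in Control (SD, n = 6 each; log2 difference 0.62, SE 0.11, limma adjusted p = 0.0458). No chaperone gene was called there with TMM scaling, with no filter, with log2 of normalized reads plus 1 or with all 4 groups in one fit. None was called either when any of 11 of the 12 libraries was left out. By contrast, 4 were called higher without Sham PD replicate 4, and 3 in limma-voom with or without sample quality weights. Of 31 RBM genes 0 passed in either group, with 6 at an unadjusted p under 0.05 in Sham and 2 in 5/6Nx. Over all genes, 2780 of 16090 had an unadjusted p under 0.05 in Sham and 689 of 16481 in 5/6Nx. Neutrophil markers were called higher in 3 of 6 cases in Sham and 1 of 6 in 5/6Nx, and their sums in Sham kidney ran from 1148 to 2548 normalized reads with PD, against 248 to 786 in Control. Their part in the member values was not tested.

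The remnant kidney of 5/6Nx rats differed from the intact kidney of Sham rats in both gene groups, and in opposite directions within the heat shock genes. Without dialysis, 6 of 11 member entries passed, 4 higher and 2 lower, where 52.2% of all genes passed, so that the share of members is near that of the table. Rbm3 rose most. It ranged from 3277 to 5670.1 normalized reads in 5/6Nx Control kidney (median 4187), against 1743 to 2200.1 in Sham Control kidney (median 1913). The groups did not overlap, and the log2 difference was 1.05 (SE 0.11, limma adjusted p = 1.51e-05). The share of all genes whose groups did not overlap in the kidney surgical contrasts was not counted. Cirbp also rose, at 1921 ± 251 in 5/6Nx (SD, n = 7) and 1520.0 ± 204 in Sham (SD, n = 6), with a log2 difference of 0.32 (SE 0.10, limma adjusted p = 0.0168).

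Hsph1 and Hsp90aa1 fell in the remnant kidney. Hsph1 ranged from 4417 to 6219.6 normalized reads in 5/6Nx Control (median 4921), against 6976 to 8921 in Sham Control (median 8009.8). The log2 difference was -0.64 (SE 0.09, limma adjusted p = 9.96e-05), in a contrast where 52.2% of all genes passed. Hsp90aa1 averaged 7935 ± 927 in 5/6Nx (SD, n = 7) and 9820 ± 909 in Sham (SD, n = 6), with a log2 difference of -0.31 (SE 0.09, limma adjusted p = 0.0106). These 4 calls held under each alternative fit and with any single library left out.

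Hspb1 and Hspa1b rose by the threshold but less firmly. Hspb1 ranged from 1155 to 5685 normalized reads in 5/6Nx Control kidney (median 2043), against 821 to 1617 in Sham Control (median 1126). The highest library, replicate 1, held 5685 reads, and 2 others lay inside the Sham range. The log2 difference was 0.87 (SE 0.31, limma adjusted p = 0.0274). That call was lost without 5/6Nx Control replicate 2 (limma adjusted p = 0.0519) or 5 (0.053), and without Sham Control replicate 1 (0.0529), 2 (0.0623) or 4 (0.0514). Hspa1b averaged 3218 ± 584 in 5/6Nx (SD, n = 7) and 2469 ± 334 in Sham (SD, n = 6), with a log2 difference of 0.36 (SE 0.12, limma adjusted p = 0.0244). Its call was lost without 5/6Nx Control replicate 2 (limma adjusted p = 0.0504), Sham Control replicate 5 (0.0599) or Sham Control replicate 6 (0.0536), and with all 4 kidney groups in one fit (0.125). Hspa1a, the copy, had a log2 difference of 0.32 (SE 0.13, limma adjusted p = 0.0518).

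Among dialysed rats the same contrast was made on other libraries. There 3 of 11 entries passed, where 40.1% of all genes did. Rbm3 ranged from 2475 to 4247 normalized reads in 5/6Nx PD kidney (median 3505), against 1172 to 2281 in Sham PD kidney (median 1612). Its log2 difference was 0.93 (SE 0.16, limma adjusted p = 3.96e-04). Hsph1 averaged 7477 ± 1532 in 5/6Nx PD (SD, n = 7) and 11419 ± 2223 in Sham PD (SD, n = 6), with a log2 difference of -0.60 (SE 0.15, limma adjusted p = 0.00456). Hsp90aa1 averaged 10698 ± 1597 in 5/6Nx PD and 14053 ± 2253 in Sham PD, with a log2 difference of -0.39 (SE 0.12, limma adjusted p = 0.0159). Cirbp differed by 0.08 (SE 0.13, limma adjusted p = 0.673) and Hspb1 by 0.22 (SE 0.22, limma adjusted p = 0.446).

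Among the other chaperones of the kidney, more were called lower than higher after 5/6Nx. In Control rats 25 of 66 were called lower and 6 higher, where 4555 of 16419 genes were lower and 4013 higher. In PD rats 17 of 67 were called lower and 4 higher, where 3278 of 16450 genes were lower and 3318 higher. In Control rats Hspa9, the mitochondrial HSP70, had 17200.0 ± 3418 normalized reads in 5/6Nx and 30726 ± 2590.2 in Sham (log2 difference -0.85, SE 0.12, limma adjusted p = 1.22e-04). Cryab, the small heat shock protein alpha-B crystallin, fell by 1.02 on the log2 scale (SE 0.24, limma adjusted p = 0.00257). Hspd1, the mitochondrial chaperonin, fell by 0.60 (SE 0.12, limma adjusted p = 9.83e-04). Serpinh1 ran the other way, with a log2 difference of 1.09 (SE 0.16, limma adjusted p = 1.4e-04), as did Bag2, an inhibitor of the chaperone-linked ubiquitin ligase, with 0.75 (SE 0.12, limma adjusted p = 1.98e-04). The median of the chaperone list was -0.11, beside -0.01 over all genes.

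Of 31 other RBM genes, 2 were called higher and 10 lower after 5/6Nx in Control rats, beside 52.2% of all genes called, and 0 higher and 3 lower in PD rats, beside 40.1% of all genes. Rbm47, an epithelial RNA-binding protein, had 2884 ± 1118 normalized reads in 5/6Nx Control and 6546 ± 818 in Sham Control (log2 difference -1.24, SE 0.24, limma adjusted p = 7.27e-04). Cell markers moved as well: all 6 macrophage markers were called higher in 5/6Nx Control kidney and 5 of 6 proximal tubule markers lower. Macrophage sums ran from 6018 to 18423 normalized reads in 5/6Nx Control, against 2021 to 4784 in Sham Control, and proximal tubule sums from 70007 to 262018 in 5/6Nx Control, against 338605 to 430907 in Sham Control. Their part in the kidney differences was not tested.

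In LV the surgical contrast gave another pattern. Without dialysis 0 of 11 member entries passed in limma, where 11 of 15792 genes did (0.0697%). An unadjusted p under 0.05 was reached by 3 entries and by 2757 of all genes. Hspb1 averaged 17424 ± 2858 normalized reads in 5/6Nx Control (SD, n = 7) and 12958 ± 1598 in Sham Control (SD, n = 6), with a log2 difference of 0.42 (SE 0.12, limma adjusted p = 0.127). Hsp90aa1 averaged 7883 ± 1699 in 5/6Nx Control and 5795 ± 774 in Sham Control (log2 difference 0.41, SE 0.14, limma adjusted p = 0.167). Limma-voom with sample quality weights called both (adjusted p = 0.0469 for Hspb1 and 0.047 for Hsp90aa1). None of the 68 other chaperones passed in limma, with 23 at an unadjusted p under 0.05 and 8 called with the weighted limma-voom. Over all 15792 genes these counts were 2757 and 660.

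Among dialysed rats Hsph1 and Hsp90aa1 rose in 5/6Nx LV, the reverse of their course in kidney. There 2 of 11 entries passed, a smaller share than the 37.8% of all genes that did. Both PD groups are among the LV libraries whose differences helped to choose the members, so these calls are not independent of that choice. Hsph1 ranged from 4043 to 7192 normalized reads in 5/6Nx PD (median 5027), against 3161 to 4826 in Sham PD (median 3706), with 5 of 7 5/6Nx libraries above every Sham library. The log2 difference was 0.49 (SE 0.14, limma adjusted p = 0.0132). Hsp90aa1 ranged from 8018 to 11408 in 5/6Nx PD (median 8527), against 4475 to 8342 in Sham PD (median 6810.2), again with 5 of 7 above every Sham library (log2 difference 0.52, SE 0.14, limma adjusted p = 0.0119). Both calls held in each alternative fit and with any single library left out. Rbm3 differed by -0.19 (SE 0.13, limma adjusted p = 0.26) and Hspb1 by -0.24 (SE 0.20, limma adjusted p = 0.376).

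Of 68 chaperones beyond the members, 38 were called higher and 4 lower in the same contrast, where 2872 of 15800 genes were higher and 3097 lower. Hspa4l, an HSP110 relative, had 1803 ± 605 normalized reads in 5/6Nx PD LV (SD, n = 7) and 697 ± 301 in Sham PD LV (SD, n = 6), with a log2 difference of 1.25 (SE 0.22, limma adjusted p = 0.00118). Hspb7, a small heat shock protein of heart and skeletal muscle, rose by 0.83 (SE 0.16, limma adjusted p = 0.00191), Dnajb5 by 0.69 (SE 0.08, limma adjusted p = 2.35e-04) and Bag2 by 0.75 (SE 0.11, limma adjusted p = 4.25e-04). Hsf2 rose by 0.36 (SE 0.08, limma adjusted p = 0.00422), on Sham PD libraries that are shared with its fall given above. Of 30 RBM genes, 4 were called higher, led by the muscle splicing factor Rbm24 (log2 difference 0.95, SE 0.12, limma adjusted p = 3.39e-04), and 5 lower. In the same libraries 5 of 6 cardiomyocyte markers were called higher and 6 of 6 macrophage markers lower. Of 5 tested endothelial markers 4 were called lower (median log2 difference -0.57), as were 4 of 5 tested fibroblast markers (median -1.24). Cardiomyocyte sums ran from 2506925 to 3511672 normalized reads in 5/6Nx PD, against 1699905 to 2527173 in Sham PD, and macrophage sums from 4454 to 11185 in 5/6Nx PD, against 15731 to 23118 in Sham PD. Their part in these chaperone values was not tested.

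**Figure D3:**
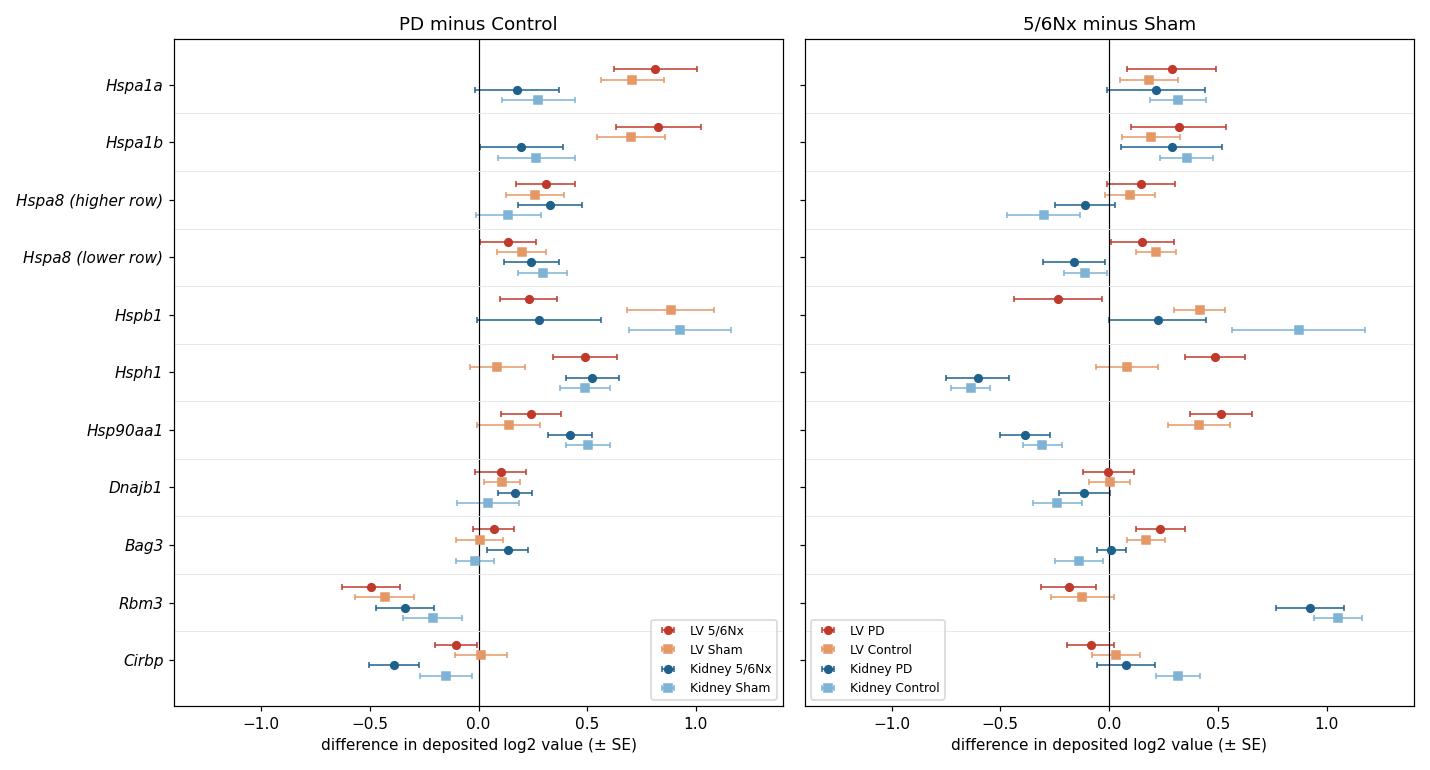
Difference in the deposited log2 value (horizontal axis, ± SE) of each member entry for dialysis (left panel, PD minus Control) and surgery (right panel, 5/6Nx minus Sham), with one symbol for each tissue and group. In the right panel Hsph1 stands at -0.60 and -0.64 in kidney and at 0.49 and 0.08 in LV, and Rbm3 stands at 0.93 and 1.05 in kidney.

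The tissues themselves differed in every member. In Sham Control rats 11 of 11 entries passed between LV and kidney, where 78.6% of all genes did, and all 11 did so as well with TMM scaling. Hspb1 averaged 12958 ± 1598 normalized reads in LV and 1178 ± 281 in kidney (SD, n = 6 each; log2 difference 3.35, SE 0.13, limma adjusted p = 1.39e-12). Bag3, which is known for its role in cardiac muscle, averaged 14231 ± 1345 in LV and 1722 ± 241 in kidney (log2 difference 2.97, SE 0.09, limma adjusted p = 1.02e-13). Rbm3 was also higher in LV (log2 difference 1.12, SE 0.11, limma adjusted p = 1.7e-07), as was Cirbp (log2 difference 0.39, SE 0.11, limma adjusted p = 0.00419). The remaining 7 entries were lower in LV. Hspa1b averaged 444 ± 100.4 in LV and 2469 ± 334 in kidney (log2 difference -2.22, SE 0.12, limma adjusted p = 9.95e-11), and Dnajb1 averaged 1536 ± 190 in LV and 4335 ± 910.4 in kidney (log2 difference -1.41, SE 0.12, limma adjusted p = 3.54e-08). Hsph1 differed by -1.12 (SE 0.10), Hsp90aa1 by -0.75 (SE 0.09), and the Hspa8 entries by -0.49 (SE 0.13) and -0.27 (SE 0.07). Both tissues may come from the same rats, which the labels do not tie, and they were treated as independent.

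Ordered by group mean over the 8 groups, Rbm3 was highest in LV Sham Control (4417 ± 867 normalized reads), then in 5/6Nx Control kidney (4219 ± 797) and 5/6Nx Control LV (4055 ± 862). The dialysed groups 5/6Nx PD kidney (3314 ± 621), Sham PD LV (3231 ± 547) and 5/6Nx PD LV (2828 ± 487) came next. Sham Control kidney (1949 ± 163) and Sham PD kidney (1710.0 ± 455) were lowest. The ranges of neighbours in this order overlapped throughout. For Hspa1b all 4 kidney groups, from 3848 ± 1466 in 5/6Nx PD to 2469 ± 334 in Sham Control, had higher means than the LV groups, from 1059.8 ± 401 in 5/6Nx PD to 444 ± 100.4 in Sham Control. The LV means of Hspa1b followed the order 5/6Nx PD, Sham PD (799 ± 219), 5/6Nx Control (522 ± 97.2) and Sham Control. Of its neighbours in the order, Sham Control kidney and 5/6Nx PD LV did not overlap.

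Within groups, libraries with more Hsph1 had less Rbm3 in both tissues. The relation was taken on log2 values less the group mean over 26 libraries in each tissue, so that it does not use the group differences. In LV, Rbm3 fell with Hsph1 (Pearson r = -0.68, Spearman rho = -0.67, permutation p = 4.5e-04 and 6.4e-04, adjusted over 8 relations 0.00228 and 0.00512). It was negative within all 4 groups, from -0.94 to -0.57, and without the 2 libraries farthest in Hsph1 r was -0.57. In kidney the same pair had r = -0.63 and rho = -0.54 (permutation p = 0.00306 and 0.0116, adjusted 0.00612 and 0.0186), from -0.71 to -0.57 within the 4 groups, and -0.50 without the 2 farthest libraries. With Sham PD left out the kidney r was -0.59 (adjusted permutation p = 0.0817).

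Hspa1b had a like relation with Rbm3 in LV (r = -0.64, rho = -0.63, permutation p = 5.7e-04 and 0.00131, adjusted 0.00228 and 0.00512), negative in all 4 groups and -0.61 without the 2 farthest libraries. In kidney the relation did not pass (r = -0.31, rho = -0.24, permutation p = 0.21 and 0.288, adjusted 0.21 and 0.288), and the difference between tissues was not tested. Cirbp rose with Rbm3 in LV (r = 0.54, rho = 0.56, permutation p = 0.00942 and 0.00698, adjusted 0.0151 and 0.014), with 0.52 without the 2 farthest libraries and 0.42 without Sham PD (adjusted permutation p = 0.0881). In kidney Cirbp and Rbm3 had r = 0.38 and rho = 0.38 (permutation p = 0.0884 and 0.0854, adjusted 0.101 and 0.0976). Dnajb1 was the last heat shock gene tested against Rbm3. In LV it rose with Rbm3 (r = 0.58, rho = 0.62, permutation p = 0.00185 and 0.00192, adjusted 0.00493 and 0.00512), positive in all 4 groups and 0.61 without the 2 farthest libraries. In kidney it had r = -0.44 and rho = -0.38 (permutation p = 0.0288 and 0.0639, adjusted 0.0383 and 0.0851), -0.50 without the 2 farthest libraries and -0.24 without Sham PD (adjusted permutation p = 0.415). The other heat shock members were not tested against Rbm3. As a description, their r in LV and kidney was 0.12 and 0.11 for Hspb1, -0.31 and 0.05 for Bag3, and -0.43 and -0.40 for Hsp90aa1. It was -0.35 and -0.28 for the more abundant Hspa8 entry, -0.07 and -0.50 for the less abundant one, and -0.66 and -0.32 for Hspa1a.

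**Figure D4:**
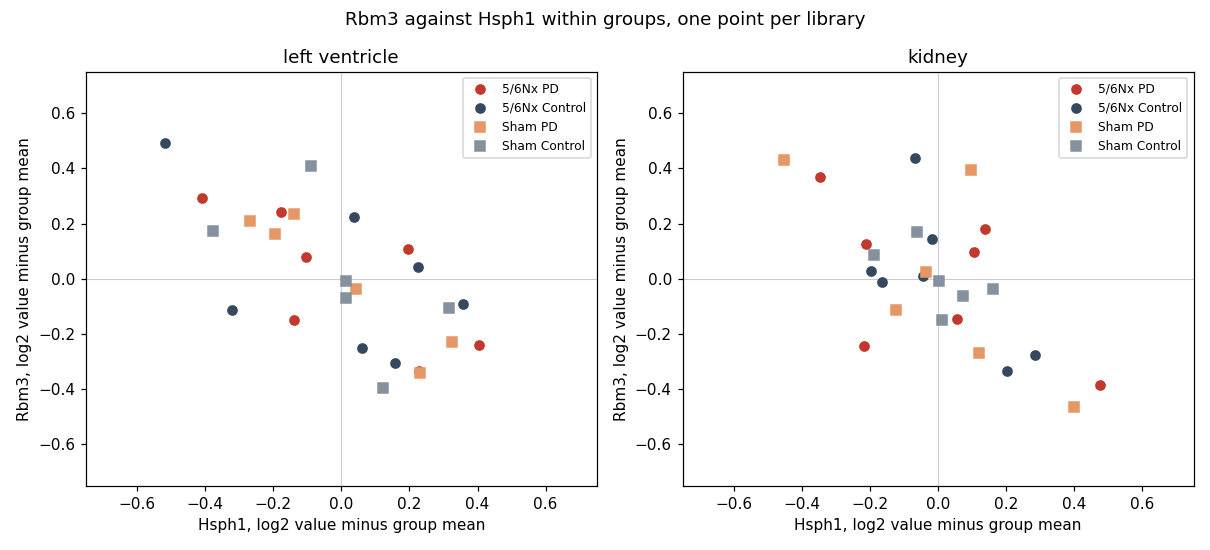
Log2 value of Rbm3 (vertical axis) against that of Hsph1 (horizontal axis), each less the mean of its group, in LV (left) and kidney (right). Points are the 26 libraries of a tissue, coloured by group; both clouds slope downwards, with r = -0.68 in LV and -0.63 in kidney.

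Cell markers varied along with these genes between libraries of a group. In LV the centred mean of 5 endothelial markers had r = 0.48 with Rbm3, 0.54 with Dnajb1, -0.58 with Hsph1 and -0.18 with Hspa1b, and that of 6 cardiomyocyte markers had -0.43, -0.62, 0.36 and 0.07 with the same genes. In kidney the 6 macrophage markers had r = -0.67 with Dnajb1, 0.28 with Rbm3 and -0.05 with Hsph1. Library depth had r between -0.16 and -0.03 with these genes in LV, and in kidney 0.19 with Rbm3, -0.11 with Hsph1 and -0.44 with Dnajb1. Their part in the relations was not tested.

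The genes whose centred values were most like Rbm3 in LV were Evl (r = 0.87), a regulator of actin filaments, Grn (0.84), which encodes progranulin, Mfsd5 (0.84), Nes (0.84), which encodes nestin, and Eva1b (0.83). In kidney they were Limk1 (0.73), Mdk (0.72), Kdelr3 (0.67), Mcm6 (0.67) and Rad18 (0.66), so that the 2 tissues shared none of their 5 genes. For Dnajb1 the closest in LV were RGD1307704 (0.84), AABR07021823.1 (0.82), Elovl1 (0.80), Ptn (0.77) and Id3 (0.76), and in kidney Ppp1r36 (0.78), Tgds (0.73), Zfp180 (0.70), Mark3 (0.69) and Tdrp (0.69). Members were left out of this ranking, and no HSP gene beyond the members was among those listed. With other heat shock members, Dnajb1 had r from -0.44 (Bag3) to 0.46 (Hspb1) in LV, and from -0.09 (Hspb1) to 0.60 (the less abundant Hspa8 entry) in kidney. These r values run over 26 libraries of 1 tissue and are a description of the libraries.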

How the data were processed

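RNA was sequenced from LV and kidney of 4 groups of rats (52 libraries), as poly(A) libraries made with a stranded kit. Per the labels and methods, the authors trimmed reads with Trim Galore and cutadapt, aligned them to rn6 with HISAT2, and used DESeq2. The deposited table held log2 values after a variance-stabilizing step over all libraries, with no reads given. Its lowest value, 5.918712599, allowed the step to be inverted: 100% of values came out as whole reads within 0.001 (largest deviation below 100000 reads 3.54e-09), and gave 16.7 M to 111.8 M reads a library (M, units of 1e+06). Deposited tables of the authors' own comparisons (4 tables with fold changes, p-values and adjusted p-values) were not used, nor were group mean columns. For dialysis the paper reported more differing genes than were called here, in both tissues and both surgical groups. On the deposited scale 100 normalized reads are at 7.67 and 1000 at 10.13, so log2 differences understate the change of low genes.

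Contrasts were fitted on the deposited log2 values with limma 3.58.1 (trend and robust, statmod 1.5.0, R 4.3.3), 2 groups at a time, keeping genes that reached 10 normalized reads in a number of libraries no lower than the size of the smaller group, with a threshold of 0.05 on the Benjamini-Hochberg adjusted p. The interaction of dialysis with surgery was fitted on the 4 groups of a tissue. The fits were tested on simulated data with 200 changed genes in each contrast simulated. Over the contrasts simulated, 53.7% to 59.7% of 1.5-fold changes and 83.6% to 95.5% of 2-fold changes were called. Between 7 and 11 unchanged genes were called as well. Changes near 1.5-fold were thus often missed in that setting. The adjusted p depends on how many genes change. The real data gave 2 called genes for dialysis in 5/6Nx kidney and 8568 for surgery in Control kidney. The simulated shares therefore do not carry over to each contrast, and a member that did not pass may still differ. Relations across libraries used 100000 two-sided permutations within groups. Intervals and tests cover the spread between rats. Replicate numbers follow accession order and pair nothing.

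Members and lists were chosen with earlier results of these data known. The LV surgical contrasts and the contrast between tissues share libraries with the LV dialysis contrasts used in that choice. Genes named beyond the members were up to 3 called genes of each list with the largest log2 difference, the 5 genes most like Dnajb1 or Rbm3 (mean of at least 100 normalized reads), and Myh6 and Slc34a1. The settings varied were the scaling (TMM), the filter (none), the model (limma-voom, plain or with sample quality weights), the scale (log2 of normalized reads plus 1), the samples fitted (the 4 groups of a tissue together) and the libraries, each left out in turn; leaving out libraries of the surgical contrast in PD rats, TMM scaling between tissues, and the marker relations were added after seeing the data. Promoter and protein sequences were not analysed here.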

Additional observations from a re-analysis of the deposited data

Results flagged for a closer look

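Among 88 combinations of a member row and a group, 1 had a library that stood apart from the rest of its group by Dixon's test, which chance gives in about 1 of 20 groups. Bag3 had 21963 normalized reads in 5/6Nx PD LV replicate 1, where the other 6 libraries ran from 14939 to 17345.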

How the results depend on the processing

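Of 11 member entries, 0 were called for surgery in Control LV and 0 for dialysis in Sham kidney; limma-voom with sample quality weights called 2 and 1 of them, and limma-voom without weights called 1 in Sham kidney. With libraries left out in turn the Sham kidney count ran from 0 to 1. All other counts of called members stayed within 1.5 times under the settings run. Signs turned where the difference was near 0 and not called. Dnajb1 in the surgical contrast of Control LV gave -0.0020 with TMM, -0.0021 with limma-voom and -0.046 with the weighted limma-voom, and from -0.037 to 0.044 with libraries left out. Cirbp there gave -0.0072 with the weighted limma-voom and from -0.038 to 0.071 with libraries left out. Dnajb1 in the surgical contrast of PD LV gave 0.0053 with TMM and from -0.083 to 0.077 with libraries left out. Bag3 ran from -0.079 to 0.039 for dialysis in Sham kidney and from -0.013 to 0.037 for surgery in PD kidney, and Dnajb1 from -0.036 to 0.13 for dialysis in Sham kidney. The relation of Cirbp with Rbm3 in LV was 0.42 without Sham PD (adjusted permutation p = 0.0881). In kidney that of Dnajb1 was -0.54 without Sham Control, -0.24 without Sham PD and -0.40 without 5/6Nx PD, and that of Hsph1 was -0.59 without Sham PD, none past the threshold. The cause of these changes was not tested. Counts of called genes over the whole table moved more. For dialysis they were 194 in Sham LV (1410 with the weighted limma-voom, 107 with 4 groups in one fit, 62 to 1646 with libraries left out), 14 in 5/6Nx LV (61 with 4 groups, 9 with no filter, 2 to 24), 23 in Sham kidney (178 with the weighted and 68 with the plain limma-voom, 9 with 4 groups, 11 with no filter, 5 to 152) and 2 in 5/6Nx kidney (20 with 4 groups, 0 with the plain limma-voom, 0 to 4). For surgery in Control LV they were 11 (660 with the weighted limma-voom, 263 with 4 groups, 6 to 304). No paired analysis was made, because the labels do not tie the libraries of a rat.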
